A study of Homo sapiens with 16 samples.

Results

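How far 1205Lu-R differs from 451Lu-R, both melanoma lines resistant to BRAF inhibitors (BRAFi-R), was measured while they were exposed to corin. The comparison took the corin libraries of each line, 4 of the 16 samples in the series, and every gene that passed a low-count filter on them, 15363 of the 34228 genes quantified. The question was which differences between the lines were still present under the drug, which were no longer seen and which were seen only with it. The DMSO libraries of the same lines served as the reference state.

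All 8 libraries came from human melanoma cultures resistant to PLX4032 (vemurafenib), an inhibitor of the mutant BRAF kinase. The study states that all its resistant lines were made by rising doses of PLX4032, and resistant stocks were kept in the inhibitor. The 451Lu-R line was received as a resistant culture from another laboratory. The groups were 1205Lu-R and 451Lu-R with 2.5 μM corin for 24 h, and the same lines with DMSO vehicle for 24 h, with 2 libraries each. The study lists PLX4032 alone and PLX4032 with corin as separate treatments of 24 h, so it was not an added treatment in these groups. The labels do not state whether any PLX4032 remained from the stock medium, nor whether the libraries of a group came from separate cultures. The p-values therefore measure only the spread between these libraries, which may be technical, and each line stands for itself and not for a class of melanomas.

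Corin is a synthetic molecule that joins an inhibitor of class I histone deacetylases to an inhibitor of the demethylase LSD1, and it targets the CoREST complex, which holds LSD1 (KDM1A), HDAC1 or HDAC2 and a scaffold of the RCOR family. CoREST removes marks of active chromatin, and it is known as a partner of the repressor REST in the silencing of neuronal genes. Melanoma cells are known to move between a melanocytic state, run by the transcription factors MITF and SOX10 and marked by pigment enzymes, and an undifferentiated, invasive state marked by the receptor AXL, AP-1 activity and matrix genes.

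Libraries held between 9516687 and 11797788 estimated counts, and levels are given as CPM, the estimated count scaled by the library total, with a value for each of the 2 libraries. Where the lines are set against each other without being named, 1205Lu-R comes first. The melanoma labels were checked against 7 melanocytic markers. Their summed level under corin was 26.2 and 23.1 CPM in the 1205Lu-R libraries and 11698.7 and 11745 CPM in the 451Lu-R libraries, so the defining pigment cell markers were close to absent in 1205Lu-R. The 5 undifferentiated melanoma markers summed to 10804 and 10668.8 CPM in 1205Lu-R and 5497.8 and 5499 CPM in 451Lu-R under corin. Most of that was VIM, with means of 9653 and 5121 CPM. Keratinocyte and leukocyte markers summed to under 10 CPM in every library. Endothelial markers summed to 27.6 and 24 CPM in 1205Lu-R and 8.4 and 9.1 CPM in 451Lu-R under corin. Fibroblast markers summed to 101.3 to 103.9 CPM in 1205Lu-R and 153.1 to 156.5 CPM in 451Lu-R under corin, with PDGFRA leading in the former and LUM in the latter, and DCN, a defining fibroblast gene, under 4 CPM in each group mean. Mitochondrial transcripts took 0.705% and 0.707% of the 1205Lu-R corin libraries and 5.90% and 5.86% of those of 451Lu-R, and 15 of 16 mitochondrial genes were called higher in 451Lu-R. The corresponding shares with DMSO were 0.377% in both 1205Lu-R libraries and 2.98% and 3.07% in 451Lu-R. The part of these shares in the results was not tested, and in bulk RNA fewer cells of a type and less RNA per cell cannot be told apart.

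The drug's targets were expressed in both lines. KDM1A stood at 147 and 158 CPM in 1205Lu-R against 253 and 251 in 451Lu-R under corin, and RCOR1 at 68.4 and 63.98 against 95.1 and 88.7. HDAC1 was measured at 129 and 139 CPM against 231 and 228, and HDAC2 at 175 and 175 against 195 and 198. These 4 genes were picked for their role after their values were seen, and each differed less than 4-fold between the lines. None of 16 CoREST subunits and partners was called under corin by edgeR or DESeq2, with 14 at an unadjusted p under 0.05 (4 higher in 1205Lu-R, 10 in 451Lu-R) and a median log2 difference of -0.34.

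Differences are log2 values of 1205Lu-R minus 451Lu-R, with their standard error. A gene was called when it differed at least 4-fold at an adjusted p (edgeR quasi-likelihood test, Benjamini-Hochberg) under 0.001. Under corin 2611 of 15363 genes were called, 17% of those tested, with 1298 higher in 1205Lu-R (8.45%) and 1313 higher in 451Lu-R (8.55%). With DMSO 2777 of the same genes were called (18.1%), 1403 higher in 1205Lu-R (9.13%) and 1374 higher in 451Lu-R (8.94%). A filter on the DMSO libraries instead gave 2922 calls of 14104 genes with DMSO, 225 of them on genes not tested here. Of the calls under corin, 762 were on genes outside that filter, so counts and shares kept depend on the filter. At an adjusted p under 0.05 with no limit on fold, 12173 genes (79.2%) differed under corin and 11693 (76.1%) with DMSO. The counts were thus close, and the median absolute log2 difference was 0.737 under corin and 0.804 with DMSO. The spread of the differences was narrower under corin. Among 10632 genes with at least 10 CPM in a group and no group at the detection floor (3 counts or fewer in each library), the SD of the log2 difference was 1.61 with DMSO and 1.21 under corin. In those genes 1397 were called with DMSO and 835 under corin, and the absolute difference was smaller under corin in 56.7%.

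Genes were sorted into 3 main classes. A difference was kept when called in both conditions in the same direction, which held for 1598 genes (10.4% of those tested), 822 higher in 1205Lu-R and 776 higher in 451Lu-R. It was lost when called with DMSO, under 2-fold with corin, and changed by the test of the difference itself, the interaction of line and drug at an adjusted p under 0.05, which held for 444 genes (2.89%). It was gained when the reverse held, for 147 genes (0.957%). A further 3 genes (0.0195%) were called in opposite directions, and 1595 were called in 1 condition without meeting the other limits. Kept genes made up 61.2% of the calls under corin and 57.5% of those with DMSO.

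The interaction had an adjusted p under 0.05 in 7952 genes (51.8%), and in 897 (5.84%) it was at least 4-fold at an adjusted p under 0.001. Of those 897, the lines lay closer together under corin in 802 and further apart in 95. Among the kept genes, the difference narrowed in 569 and widened in 88, and in 941 the interaction missed the threshold. Changes from DMSO to corin within a line are given as a description, since the DMSO comparison and the interaction use the same libraries.

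**Figure D1:**
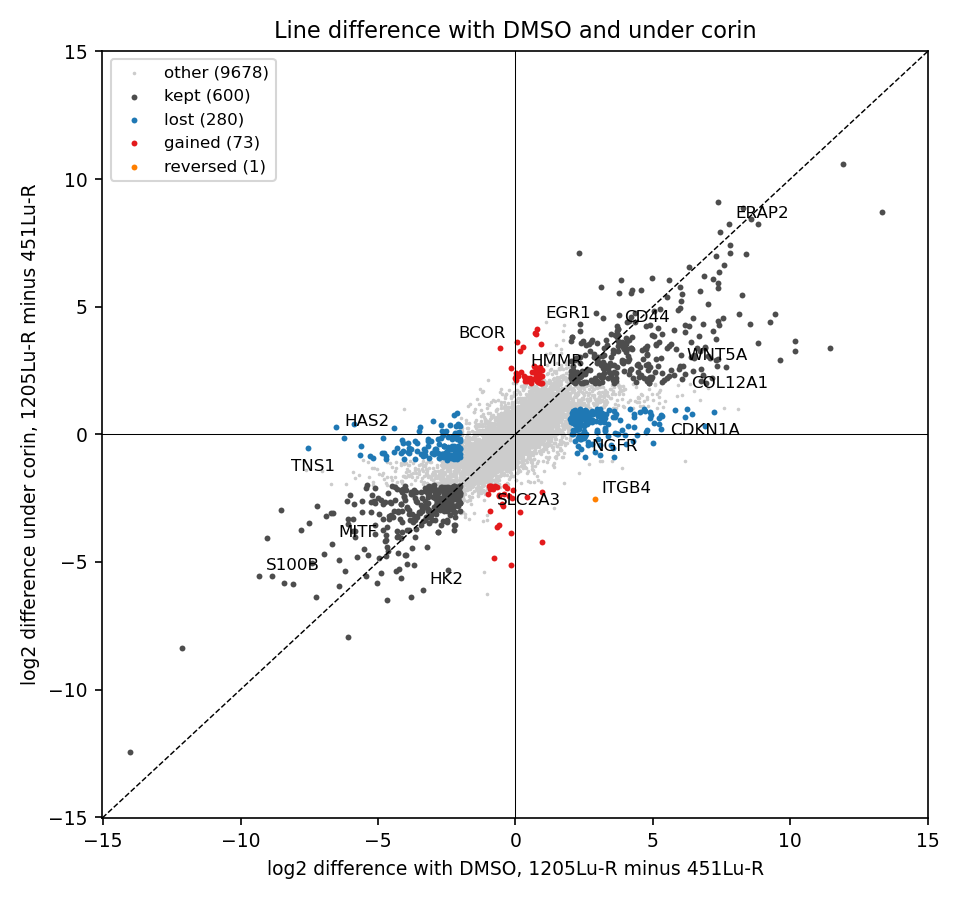
Each point is 1 of 10632 genes with at least 10 CPM in a group and no group at the floor. The horizontal axis gives the log2 difference between the lines with DMSO and the vertical axis the same under corin, both as 1205Lu-R minus 451Lu-R, and the dashed line marks equal values. Kept genes (600) lie along the dashed line and mostly on its inner side, lost genes (280) on the horizontal axis and gained genes (73) on the vertical axis.

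**Figure D2:**
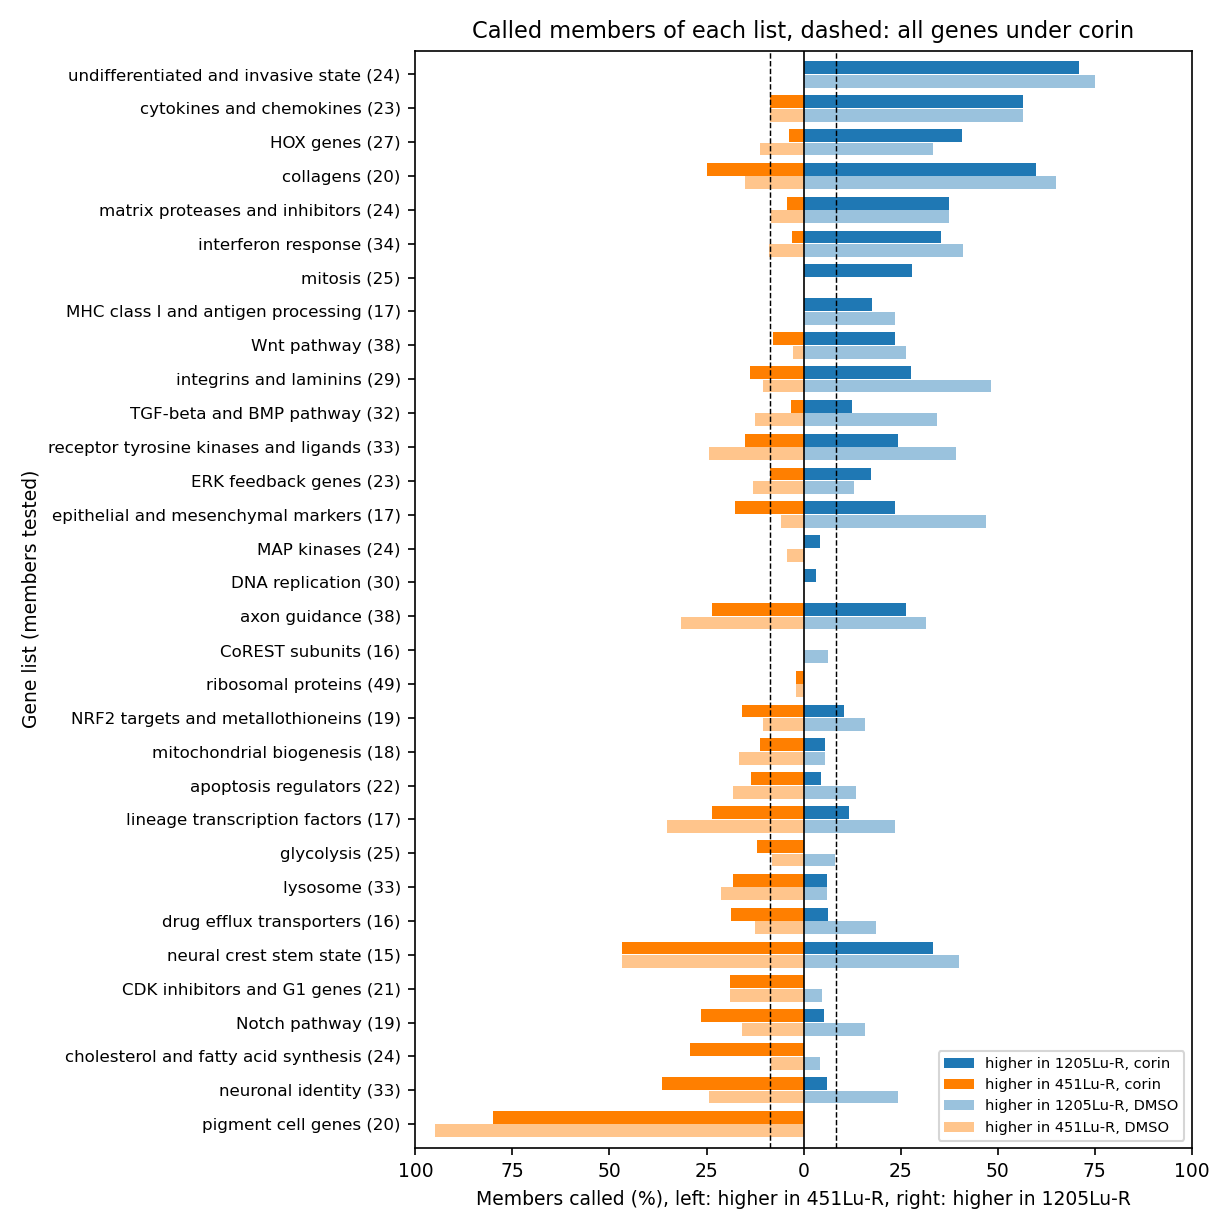
Share of the tested members called higher in 1205Lu-R (to the right) or in 451Lu-R (to the left), with DMSO (light) and under corin (dark), for the 32 gene lists with at least 15 tested members, and dashed lines at the shares of all genes under corin. Pigment cell genes lie wholly on the 451Lu-R side and invasive state genes on the 1205Lu-R side in both conditions, while mitosis genes are called under corin and not with DMSO.

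The pigment cell program was one-sided and stayed with 451Lu-R. Of 20 pigment cell genes tested, 16 were called higher in 451Lu-R under corin, where 8.55% of all genes were called in that direction. None was called higher in 1205Lu-R by edgeR or by DESeq2, and 2 were so at an unadjusted p under 0.05. The median log2 difference was -6.15 when genes at the floor were set at their bound, against -0.02 over all genes. With DMSO the count was 19 and the median -8.59. Levels still moved with corin. Of 19 pigment cell genes with 10 CPM in a group, 12 fell at least 2-fold in 451Lu-R and 5 rose 2-fold in 1205Lu-R. Over all 11199 genes at that level, 1632 fell in 451Lu-R and 1842 rose in 1205Lu-R. The median change of the pigment cell genes was -1.47 in 451Lu-R and 0.45 in 1205Lu-R, against -0.12 and 0.00 over all genes. MITF, the master regulator of melanocytes, stood at 16.5 and 15.03 CPM in 1205Lu-R against 287 and 286 in 451Lu-R, a log2 difference of -4.28 ± 0.051 (adjusted p = 8.95e-22). With DMSO it had been 8.04 and 6.31 against 782 and 804 CPM. MITF was thus lower in every 1205Lu-R library in both conditions, with a gap that narrowed by 2.39 ± 0.15 log2 units (interaction adjusted p = 1.71e-12).

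The enzymes and structural proteins of the pigment granule kept a wider gap. TYR, tyrosinase, had no count in either 1205Lu-R library and 325 and 330.2 CPM in those of 451Lu-R, at least 1120.4-fold higher there. DCT, the dopachrome tautomerase, measured 0.315 and 0.4499 CPM against 2692 and 2658. The melanosome transporter SLC45A2 measured 0 in both libraries against 94.4 and 87.4, and the matrix protein PMEL, a cell type marker named here after its values were seen, 1.68 and 1.08 against 7189.7 and 7262. For all 4 genes the lines did not overlap, and corin did not bring 1205Lu-R above 2 CPM. PMEL overlaps CDK2 on the other strand, and whether counting used strand is not given in the sources used here.

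A pair of pigment cell genes left the group. MREG, melanoregulin, which acts in melanosome transfer, went from 4.48 and 6.15 to 25.1 and 22.5 CPM in 1205Lu-R and from 77.01 and 81.9 to 32.2 and 35.05 in 451Lu-R. BCL2A1, a survival gene of the BCL2 family and an MITF target, went from 4.97 and 7.34 to 28.3 and 27.98 CPM in 1205Lu-R and from 68.1 and 78.95 to 22.97 and 20 in 451Lu-R. Both genes came together through 1205Lu-R rising and 451Lu-R falling, and their interactions were 3.19 ± 0.15 and 3.75 ± 0.16.

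Promoter sequence is shown for kept pigment cell genes because MITF-family factors bind the M-box, whose core is TCATGTG. The letters were sought on both strands, from 250 bases before to 50 after the RefSeq start on GRCh38.p14, and the core holds the shorter E-box CATGTG. It occurred in 4.4% of 546 promoters of genes kept higher in 451Lu-R, in 1.70% of 530 of genes kept higher in 1205Lu-R and in 1.74% of 11462 promoters of tested genes. Among 13 kept pigment cell genes with a promoter sequence, 5 held it (38.5%). The 150 bases before the start of TYR and TYRP1, which encodes a tyrosinase-related protein of the same pathway, carry it 105 and 145 bases before the start, in capitals below. The M-box core and the AP-1 site below come from 8 motifs sought. The CLEAR-type E-box TCACGTG of MITF and TFE factors was in 5.68% of promoters kept higher in 451Lu-R and 5.78% of all. It was in 0 of the 13 pigment cell genes. The SOX site ACAAAG was in 15.9% against 10.8% of all, and the GC box GGGCGG in 58.2% against 69.4%. Median GC content was 53.3% in the 13 promoters and 65.3% in all. A match of letters is a description and not a bound site.
TYR, chr11:89177725-89177874, plus strand: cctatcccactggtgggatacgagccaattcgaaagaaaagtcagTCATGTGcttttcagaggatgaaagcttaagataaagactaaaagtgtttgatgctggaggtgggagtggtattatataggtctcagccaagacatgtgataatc
TYRP1, chr9:12693235-12693384, plus strand: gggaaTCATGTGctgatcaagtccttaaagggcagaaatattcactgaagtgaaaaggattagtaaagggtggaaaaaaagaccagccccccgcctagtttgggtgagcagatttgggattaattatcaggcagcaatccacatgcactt

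The lineage factors around MITF gave calls in both directions. SOX10, which maintains neural crest and melanocyte identity, had no count in any 1205Lu-R library and 232 and 236 CPM in the 451Lu-R corin libraries, at least 799-fold higher. Its level in 451Lu-R had been 773 and 743 CPM with DMSO. SOX9, its counterpart in undifferentiated cells, ran the other way at 308 and 315 CPM in 1205Lu-R against 7.798 and 8.398 in 451Lu-R, where both DMSO libraries had been at 0. The lines differed in SOX9 by 5.18 ± 0.058. The melanocyte factor IRF4 measured 0 and 0.27 against 5.76 and 4.499 CPM, and PAX3, which acts upstream of MITF, 19.5 and 20.3 against 86.8 and 86.9. In the 451Lu-R DMSO libraries IRF4 had been at 74.4 and 76.7 CPM and PAX3 at 57.8 and 58.2. In all, 4 of 17 lineage factors were called higher in 451Lu-R and 2 higher in 1205Lu-R, against 8.55% and 8.45% of all genes.

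Of 15 genes of the neural crest stem state 12 were called (80%, against 17% of all genes), 5 higher in 1205Lu-R and 7 higher in 451Lu-R, so the list had no common side. S100B, a calcium-binding protein used as a melanoma marker, measured 7.46 and 6.48 CPM in 1205Lu-R against 302 and 307 in 451Lu-R, a difference of -5.54 ± 0.06. The nuclear receptor RXRG measured 0.105 and 0 CPM against 6.103 and 7.499. NGFR, a neurotrophin receptor that marks neural crest-like melanoma cells, went from 5.603 and 6.12 CPM to 206 and 199 in 1205Lu-R and from 1.28 and 0.828 to 355 and 348 in 451Lu-R. Both lines were thus far above their DMSO level, and the call present with DMSO was lost, with -0.89 ± 0.031 under corin.

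Genes of the undifferentiated and invasive state were higher in 1205Lu-R, 17 of 24 under corin and 18 with DMSO, where the shares of all genes were 8.45% and 9.13%. None was called higher in 451Lu-R in either condition by edgeR or DESeq2, with 1 so at an unadjusted p under 0.05 in each. The median log2 difference fell from 4.83 with DMSO to 3.28 under corin with floor genes at their bound. AXL, the receptor tyrosine kinase that defines this state, measured 480.1 and 471 CPM in 1205Lu-R against 2.47 and 2.34 in 451Lu-R, a difference of 7.54 ± 0.069 (adjusted p = 1.81e-23). With DMSO it had been 948 and 976 CPM in 1205Lu-R against 0.222 and 0 in 451Lu-R. AXL therefore fell in the higher line and stayed under 3 CPM in the lower.

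THBS1, the matrix glycoprotein thrombospondin 1, measured 5714 and 5772 CPM against 3.48 and 3.51, and TGFBI, a matrix protein induced by TGF-β, 561 and 564 against 0.593 and 0.1. WNT5A, a non-canonical Wnt ligand tied to invasion, measured 37.2 and 37.9 against 5.51 and 5.599 and narrowed from 5.99 ± 0.087 to 2.67 ± 0.1. NRG1, a ligand of ERBB3, was lost, going from 17.9 and 20.2 to 11.5 and 14.6 CPM in 1205Lu-R and from 1.37 and 0.871 to 5.11 and 7.36 in 451Lu-R.

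The 1205Lu-R side was read against the AP-1 site TGAGTCA, the letters bound by JUN and FOS family dimers. It occurred in 7.36% of promoters of genes kept higher in 1205Lu-R, 4.03% of those kept higher in 451Lu-R and 3.07% of all tested promoters, on either strand in the same windows. IL11, an interleukin 6 family cytokine, carries it 96 bases before its start and is shown because its level went up under corin in the line that holds it. It went from 61.9 and 59.3 to 1014 and 1005 CPM in 1205Lu-R and from 0.397 and 0 to 2.72 and 1.201 in 451Lu-R.
IL11, chr19:55370464-55370613, minus strand: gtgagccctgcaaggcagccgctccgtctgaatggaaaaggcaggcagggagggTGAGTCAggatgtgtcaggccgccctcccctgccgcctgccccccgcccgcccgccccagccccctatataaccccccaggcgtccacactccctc

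Among factors of the epithelial to mesenchymal transition, 3 of 10 were called under corin (30%, against 17% of all genes), all higher in 1205Lu-R, after 4 higher and 2 lower there with DMSO. TWIST2 measured 23.7 and 23.1 CPM against 0.085 and 0, PRRX1 6.41 and 6.12 against 0.763 and 0.2999, and TCF4 35 and 36.1 against 6.78 and 7.399. The switch between ZEB1 and ZEB2, repressors used by undifferentiated and melanocytic cells respectively, was less wide than with DMSO. ZEB2 measured 16.5 and 17.4 CPM in 1205Lu-R against 33.3 and 39.99 in 451Lu-R, and its difference went from -3.50 ± 0.069 to -1.19 ± 0.095. ZEB1 measured 61.8 and 59.03 against 17.9 and 20.4 and went from 3.22 ± 0.1 to 1.57 ± 0.076. SNAI2, a repressor expressed in the melanocyte lineage, was lost, going from 47.4 and 45.3 to 112 and 118 CPM in 1205Lu-R and from 233 and 232 to 64.7 and 64.2 in 451Lu-R.

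Epithelial genes gave both directions. The desmosome genes DSP and DSG2 were kept, DSP at 56.8 and 56.3 CPM against 0.424 and 0.6999 and DSG2 at 157 and 156 against 0.339 and 0.526. ESRP1, a splicing factor of epithelial cells, was higher in 451Lu-R, 8.9 and 6.399 CPM against 0.105 and 0.09. CLDN1, a tight junction protein, was called under corin only, 0.105 and 0 CPM against 14.7 and 14.7. CDH1, the epithelial cadherin, did not pass the filter, with at most 8.0 estimated counts in any library.

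**Figure D3:**
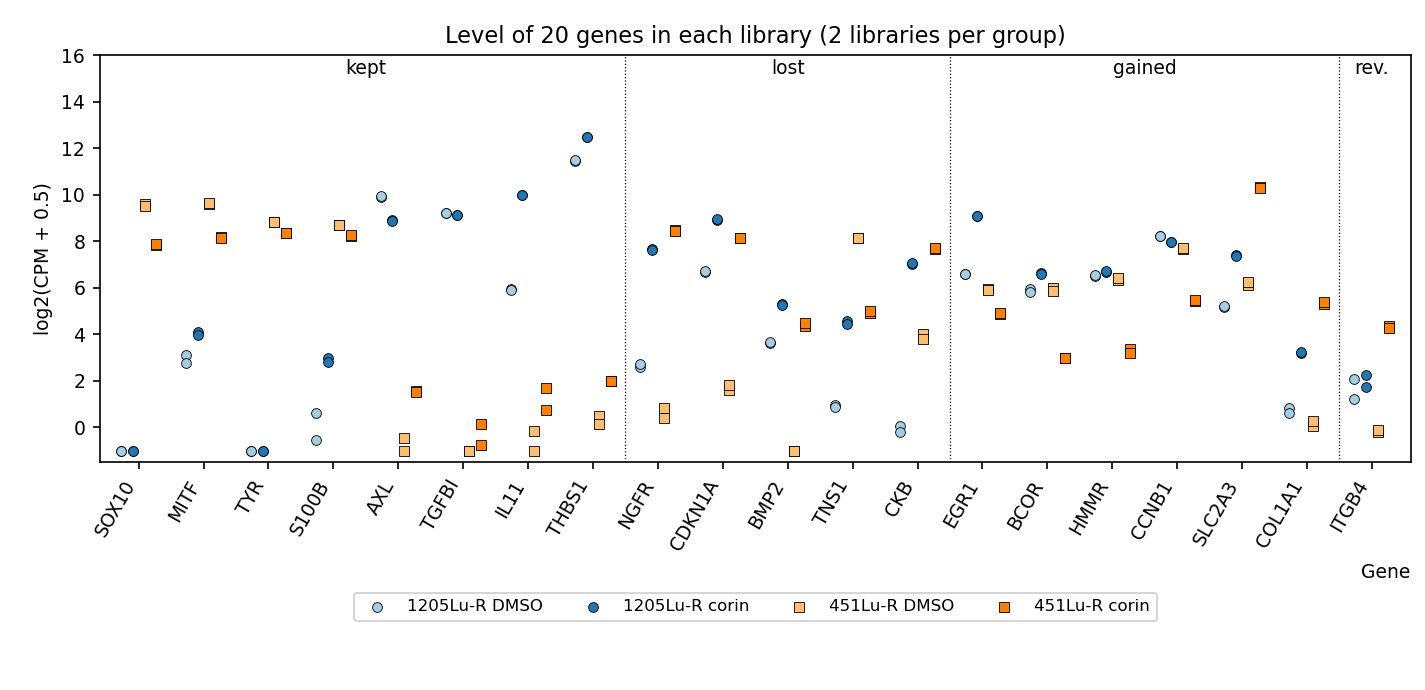
Level of 20 genes in each of the 8 libraries, as log2 of CPM plus 0.5, with circles for 1205Lu-R and squares for 451Lu-R, and light for DMSO and dark for corin. The sections hold kept, lost, gained and reversed genes: SOX10, MITF and TYR stay apart under corin, NGFR and CDKN1A rise in both lines until they meet, and HMMR, CCNB1 and BCOR separate because the 451Lu-R corin libraries lie lower.

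Collagens differed between the lines more often than genes in general were called. Of 20 collagens 17 were called under corin (background 17%), 12 higher in 1205Lu-R and 5 higher in 451Lu-R. The basement membrane chains COL4A1 and COL4A2 measured 302 and 298 CPM against 1.44 and 0.7998, and 743 and 751 against 0.1695 and 0.3999. COL13A1, a membrane collagen, measured 31.5 and 32.4 against 0.1695 and 0.2999. On the other side, COL1A1, the main chain of type I collagen, was gained by 451Lu-R at 39.1 and 41.6 CPM against 8.62 and 9.09, from 0.5503 and 0.724 and 1.27 and 1.04 with DMSO. COL12A1, which binds collagen fibrils, was lost, with 0.99 ± 0.06 under corin after 6.24 ± 0.17, and went from 47.2 and 50.6 to 89.5 and 84.8 CPM in 1205Lu-R and from 0.734 and 0.621 to 42.8 and 39.6 in 451Lu-R.

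Matrix and adhesion genes were among the 3 reversed genes. ITGB4, the integrin chain of hemidesmosomes, went from 1.81 and 3.77 to 2.84 and 4.23 CPM in 1205Lu-R and from 0.367 and 0.414 to 20.2 and 18.9 in 451Lu-R, a difference of -2.53 ± 0.16 under corin. ACAN, the cartilage proteoglycan aggrecan, went from 0 in both libraries to 12.1 and 11.6 CPM in 1205Lu-R and from 1.11 and 1.03 to 1.696 and 1.4 in 451Lu-R, a difference of 2.83 ± 0.22 under corin. IGSF10, of the immunoglobulin superfamily, went from 0 in both libraries to 3.68 and 2.52 CPM in 1205Lu-R and from 0.734 and 0.724 to 0.254 and 0.6999 in 451Lu-R. ITGB4 thus rose in 451Lu-R, and ACAN and IGSF10 in 1205Lu-R, each past the other line, with DMSO levels under 4 CPM in every library. IGSF10 was named after its values were seen, and it overlaps MED12L on the other strand. Among kept genes, ITGA2, a collagen receptor, measured 425 and 425 CPM against 28.8 and 26.4, and ITGA11, another, 72.9 and 71.4 against 2.797 and 1.9. TIMP1, a metalloprotease inhibitor, measured 2207 and 2272 against 169 and 168. HAS2, a hyaluronan synthase, was lost, going from 1.54 and 1.89 to 2.42 and 3.599 CPM in 1205Lu-R and from 138 and 139 to 2.88 and 3.5 in 451Lu-R.

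Of 33 receptor tyrosine kinases and their ligands, 13 were called under corin (39.39%) and 21 with DMSO, where the shares of all genes were 17% and 18.1%, and all 13 were kept. PDGFRB, a platelet-derived growth factor receptor known from BRAFi resistance, measured 85.2 and 84.6 CPM in 1205Lu-R against 0.509 and 1 in 451Lu-R. RET measured 0 in both libraries against 37.2 and 35.8 and the insulin receptor INSR 0.946 and 0.7199 against 30.9 and 28. With DMSO, RET had been at 0 in both 1205Lu-R libraries and at only 1.38 and 0.931 CPM in 451Lu-R, so most of its level there was seen with corin. ALK was lost, going from 25.1 and 21.4 to 31.4 and 31.4 CPM in 1205Lu-R and from 3.03 and 3.104 to 18.5 and 17 in 451Lu-R.

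Genes that read out ERK signalling gave 6 calls of 23 (26.09%, against 17% of all genes), 4 of them higher in 1205Lu-R, and also 6 with DMSO, 3 in each direction. EGR1, an immediate early factor, was gained, going from 96.7 and 96.3 to 546 and 551 CPM in 1205Lu-R and from 61.1 and 60.02 to 28.99 and 29.8 in 451Lu-R. Its level went up in the former and down in the latter, and its interaction was 3.35 ± 0.073 (adjusted p = 2.47e-21). The phosphatase DUSP5, an ERK-induced brake, measured 145 and 144 against 32.3 and 35.6 CPM, and DUSP1 133 and 140.5 against 90.3 and 89.1, which was no call. MYC was lost, going from 55.8 and 58.2 to 49.9 and 49.1 CPM in 1205Lu-R and from 251 and 251 to 34.5 and 38.2 in 451Lu-R. Among 24 MAP kinases a single gene was called, MAPK13, the δ isoform of p38, at 9.27 and 10.8 against 0.431 and 0.7799 CPM. MAP2K6, a kinase that activates p38, was lost with -0.27 ± 0.059 after -3.07 ± 0.16.

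AP-1 factors gave 3 calls of 13 under corin (23.08%, near the 17% of all genes) and 8 with DMSO, where 18.1% of all genes were called. FOSL1 (FRA1), the FOS family member of invasive melanoma, was kept at 73.8 and 76.5 CPM in 1205Lu-R against 5.26 and 7.099 in 451Lu-R. FOSB was gained, going from 3.34 and 3.01 to 9.56 and 9.81 CPM in 1205Lu-R and from 2.84 and 3.41 to 1.78 and 1.8 in 451Lu-R. FOS was lost, going from 6.42 and 7.06 to 84.8 and 83.1 CPM in 1205Lu-R and from 41.3 and 43.05 to 133 and 126 in 451Lu-R.

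In the TGF-β and BMP pathway 15 of 32 genes were called with DMSO, where 18.1% of all genes were, and 5 under corin (15.62%), a share near the 17% of all genes, with 5 lost. The ligand BMP2 went from 12.02 and 12.1 to 39.4 and 37.3 CPM in 1205Lu-R and from 0 in both libraries to 20 and 21.7 in 451Lu-R. BMP4 went from 0.723 and 1.69 to 9.04 and 6.93 CPM in 1205Lu-R and from 0 in both libraries to 5.76 and 2.9 in 451Lu-R, and TGFB2 from 0.09 and 0.094 to 1.68 and 2.25 CPM in 1205Lu-R and from 3.52 and 3.03 to 1.86 and 0.975 in 451Lu-R. These ligands thus came to within 2-fold between the lines, while TGFB1 was kept at 651 and 641 CPM against 84.7 and 80.03. INHBA, the activin A subunit, was kept at 97.4 and 98.5 against 4.24 and 4.199, and ID4, a target of BMP signalling, at 1.996 and 2.79 against 50.1 and 50.8, which was higher in 451Lu-R. TGFB1 overlaps HNRNPUL1 on the other strand.

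Wnt genes gave 12 calls of 38 (31.58%, against 17% of all genes), 9 higher in 1205Lu-R, with a median log2 difference of 0.05. DKK1, a secreted Wnt antagonist, measured 174 and 174 CPM against 2.29 and 1.7, and DKK3, a relative of it, 532 and 526 against 0.254 and 0.1. SFRP1, another antagonist, was lost, going from 1221 and 1209 to 771 and 760.0 CPM in 1205Lu-R and from 149 and 145 to 456 and 461 in 451Lu-R. Notch genes gave 6 of 19 (also 31.58%), 5 of them higher in 451Lu-R, where the effector HEY1 measured 111 and 104 CPM against 13.1 and 11.9.

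Mitosis genes moved apart under corin. With DMSO none of 25 was called by edgeR or DESeq2, with 19 higher in 1205Lu-R and 4 higher in 451Lu-R at an unadjusted p under 0.05. Under corin 7 (28%) were called higher in 1205Lu-R, where 8.45% of all genes were, and the median log2 difference went from 0.50 to 1.79. All 25 had an interaction at an adjusted p under 0.05, where the share of all genes was 51.8%. In 451Lu-R 22 of the 25 fell at least 2-fold from DMSO to corin, against 1 in 1205Lu-R, with median changes of -1.85 and -0.30. Over all genes with 10 CPM in a group those medians were -0.12 and 0.00. CCNB1, the cyclin that starts mitosis, went from 299.8 and 297 to 249 and 247 CPM in 1205Lu-R and from 205 and 211 to 43.1 and 43.4 in 451Lu-R. KIF20A, a kinesin of cytokinesis that shares sequence with genes on the other strand, measured 137 and 142 against 21.3 and 21.6.

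The kinetochore motor CENPE went to 2.44 ± 0.08 under corin from 0.20 ± 0.069, and CENPF, a kinetochore protein, to 2.30 ± 0.047 from 0.32 ± 0.034. HMMR, a spindle protein outside the list that was among the largest gains, went from 91.5 and 92.2 to 103 and 106 CPM in 1205Lu-R and from 80.1 and 84.5 to 9.83 and 8.598 in 451Lu-R. DNA replication genes did not separate in this way. Of 30, 1 was called under corin (RRM2, a subunit of ribonucleotide reductase, 878 and 895 against 202 and 185 CPM), and 2-fold falls were seen in 14 for 1205Lu-R and 17 for 451Lu-R.

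Of 21 genes of G1 and its cyclin-dependent kinase inhibitors, 4 were called under corin (19.05%, against 17% of all genes), all higher in 451Lu-R. CDKN1A (p21) was lost, rising from 103 and 105 CPM to 489 and 499 in 1205Lu-R and from 2.57 and 3.001 to 285 and 283 in 451Lu-R, with an interaction of -4.63 ± 0.12. CDKN2A (p16) measured 0 CPM in both libraries against 138 and 139, at least 474-fold higher in the latter, and its neighbour CDKN2B (p15) 0 in both libraries against 182 and 173. CDKN1C (p57), an imprinted inhibitor, measured 3.42 and 3.599 against 29.6 and 30.5. CDK2, a kinase of S phase entry, measured 30.9 and 33.3 against 228 and 227. If counting did not use strand, reads of CDK2 cannot be told from those of PMEL where the genes overlap.

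BCOR and GSE1, both chromatin corepressor proteins, changed class in opposite ways. BCOR was gained by 1205Lu-R, going from 60.5 and 55.7 to 97.6 and 96.8 CPM in 1205Lu-R and from 62.3 and 57.9 to 7.37 and 7.399 in 451Lu-R. It thus fell in 451Lu-R alone, with an interaction of 3.56 ± 0.11 (adjusted p = 1.18e-18). GSE1, a partner of CoREST, was lost, going from 39.3 and 34.3 to 52.96 and 48.8 CPM in 1205Lu-R and from 8.44 and 7.24 to 41.9 and 41.9 in 451Lu-R.

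Neuronal genes were spread over both lines, and more of them were higher in 451Lu-R under corin. Of 33 tested, 12 were called higher in 451Lu-R and 2 higher in 1205Lu-R, against 8.55% and 8.45% of all genes, and the counts with DMSO were 8 and 8. With DMSO 7 of the 33 were at the floor in both lines. Those genes passed the filter only through their level under corin and could not be called with DMSO, so the counts of the conditions are not on equal terms. SYT4, a synaptic vesicle protein, went from 0 in both libraries to 0.2102 and 0.09 CPM in 1205Lu-R and from 0 in both libraries to 6.696 and 5.899 in 451Lu-R. CPLX1, a complexin of vesicle release, went from 0.09 and 0 to 0.525 and 0.27 CPM in 1205Lu-R and from 0.459 and 0.414 to 7.04 and 7.799 in 451Lu-R. ATCAY, a neuronal protein, was gained, going from 0.154 and 0.567 to 5.17 and 5.68 CPM in 1205Lu-R and from 0.771 and 0.562 to 65.4 and 62.5 in 451Lu-R. The interaction of ATCAY, -3.00, depended on a single library and was -2.02 without 1205Lu-R DMSO replicate 2. These genes were low with DMSO and higher in 451Lu-R than in 1205Lu-R with corin.

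Others met instead of parting. SNAP25, a subunit of the vesicle fusion machinery, went from 1.99 and 1.41 to 2.102 and 2.07 CPM in 1205Lu-R and from 0.183 and 0.103 to 3.39 and 3.299 in 451Lu-R, and the granin CHGB from 8.404 and 7.16 to 17.9 and 19.2 CPM in 1205Lu-R and from 1.38 and 0.724 to 10.9 and 13.6 in 451Lu-R. GABRA5, a GABA receptor subunit, was kept at 0 and 0.09 CPM in 1205Lu-R against 16.1 and 13.1 in 451Lu-R. Of 38 axon guidance genes 19 were called (50%, against 17% of all genes), 10 higher in 1205Lu-R and 9 higher in 451Lu-R, and 18 of the 19 were kept. SLIT2, a repulsive cue, was lost, going from 29.9 and 27.9 to 107 and 104 CPM in 1205Lu-R and from 1.38 and 0.621 to 63.2 and 64.9 in 451Lu-R. NTN1, netrin 1, was lost, going from 98.5 and 98.7 to 132 and 137 CPM in 1205Lu-R and from 10.8 and 9.52 to 96.3 and 95.6 in 451Lu-R, and SEMA3A, a semaphorin, from 1.72 and 1.69 to 17.02 and 14.04 CPM in 1205Lu-R and from 31.3 and 30.7 to 19.2 and 17.9 in 451Lu-R.

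Calls among cytokines lay mostly on the 1205Lu-R side, where 8.45% of all genes were called. Of 23 cytokines, chemokines and receptors 13 were called higher there and 2 higher in 451Lu-R, the same counts as with DMSO, and 13 of the 15 were kept. LIF, an interleukin 6 family cytokine, measured 65.7 and 67.8 CPM against 0.678 and 1.4, and IL7R, a cytokine receptor, 66.1 and 66.05 against 0.254 and 1. IL32 measured 10.9 and 10.5 against 0.085 and 0. Of 34 interferon-response genes 12 were called higher in 1205Lu-R and 1 was lower, after 14 and 3 with DMSO, and 10 were lower at an unadjusted p under 0.05. The antiviral restriction factor IFITM3 measured 122 and 127 against 0 and 0.2999 CPM, and MX1 19.96 and 19.1 against 0.848 and 1.

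Of 17 genes of MHC class I and antigen processing 3 were called under corin (17.65%, near the 17% of all genes), all higher in 1205Lu-R. ERAP2, a peptide-trimming enzyme, measured 181 and 178 CPM against 0.706 and 0.418, and PSMB9, an immunoproteasome subunit, was lost, going from 24.6 and 24.1 to 19.03 and 18.6 CPM in 1205Lu-R and from 2.96 and 1.94 to 9.75 and 8.398 in 451Lu-R. For MHC class II, 7 of 12 genes were called higher in 451Lu-R under corin and 2 with DMSO, where the shares of all genes were 8.55% and 8.94%, and 1 and 2 were called higher in 1205Lu-R. With DMSO 5 of the 12, HLA-DRB1 among them, were at the floor in both lines. Those passed the filter only through their level under corin and could not be called with DMSO, so the rise in calls depends in part on the filter. CD74, the invariant chain, measured 0 and 0.27 CPM in 1205Lu-R against 6.61 and 6.89 in 451Lu-R, and HLA-DRB1 was gained, going from 0.181 and 0.188 to 1.84 and 2.21 CPM in 1205Lu-R and from 0.092 and 0.103 to 9.23 and 8.15 in 451Lu-R. HLA-DRA was lost, going from 1.08 and 0.847 to 11.9 and 11.2 CPM in 1205Lu-R and from 0 in both libraries to 13.8 and 12.3 in 451Lu-R. Reads of HLA genes are shared among paralogs and alleles, so their split is uncertain. CD274, the checkpoint ligand PD-L1, was kept at 45.1 and 49.2 CPM in 1205Lu-R against 6.02 and 5.099 in 451Lu-R.

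Genes of cholesterol and fatty acid synthesis lay towards 451Lu-R. Of 24 tested, 7 were called higher in 451Lu-R under corin (29.17%, against 8.55% of all genes) and 2 with DMSO, where 1 was higher in 1205Lu-R, and the median went from -0.62 to -1.42. SREBF2, the regulator of the pathway, measured 52.4 and 47.9 CPM against 364 and 374, the reductase DHCR7 169 and 177 against 1007 and 1012, and INSIG1, a sterol sensor, 35.6 and 38.2 against 208 and 204. FASN, fatty acid synthase, was gained at 376 and 385 against 1493 and 1516. Ribosomal proteins, a reference list of 49, had a median of -0.73 under corin and -0.54 with DMSO, with 1 called (RPL10).

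Glucose transporters changed class in opposite ways. SLC2A3 (GLUT3) was gained by 451Lu-R, going from 35.7 and 36.5 to 171 and 166 CPM in 1205Lu-R and from 70.2 and 74.97 to 1281 and 1252 in 451Lu-R, and rose in both lines. SLC2A1 (GLUT1) was lost, going from 321 and 330.2 to 81.8 and 78.9 CPM in 1205Lu-R and from 56.8 and 63.7 to 76.96 and 79.98 in 451Lu-R. HK2, hexokinase 2, was kept and widened from -3.37 ± 0.056 to -6.12 ± 0.062, at 5.15 and 4.68 CPM against 322 and 319.5 under corin. PPARGC1A, the mitochondrial coactivator that MITF controls, measured 3.36 and 4.68 against 29.8 and 30.5 CPM, and CKB, brain creatine kinase, was lost, going from 0.542 and 0.377 to 131 and 133 CPM in 1205Lu-R and from 15.6 and 13.6 to 205 and 209.9 in 451Lu-R.

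Over all genes, differences lost at the 4-fold call closed mostly from below. Of 248 lost genes that had been higher in 1205Lu-R, the lower line rose 2-fold without a fall of the higher in 205, and the higher fell without a rise of the lower in 16. Of 196 that had been higher in 451Lu-R, the corresponding counts were 126 and 38. In 19 of the 196 both happened. TNS1, a focal adhesion protein, was of these and went from 1.45 and 1.32 to 23.1 and 21.5 CPM in 1205Lu-R and from 278 and 280.3 to 29.3 and 31.4 in 451Lu-R. LRP3, of the lipoprotein receptor family, had at most 3 counts in each 451Lu-R DMSO library and measured 19.8 and 22.5 CPM there under corin, against 36.04 and 39.5 in 1205Lu-R. Gained differences opened in both ways. Of 94 gained by 1205Lu-R, that line alone rose 2-fold in 40, the other alone fell in 37 and both happened in 4, and of 53 gained by 451Lu-R the counts were 36, 7 and 2. SLC5A3, the myo-inositol transporter, which lies within MRPS6, was among the latter, going from 261 and 250.1 to 45.9 and 45.6 CPM in 1205Lu-R and from 243 and 242 to 349.8 and 359 in 451Lu-R. PTGER3, a prostaglandin receptor, was gained by 451Lu-R, going from 0 and 0.188 to 0.736 and 0.6299 CPM in 1205Lu-R and from 0 and 0.103 to 11.95 and 13.7 in 451Lu-R.

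**Figure D4:**
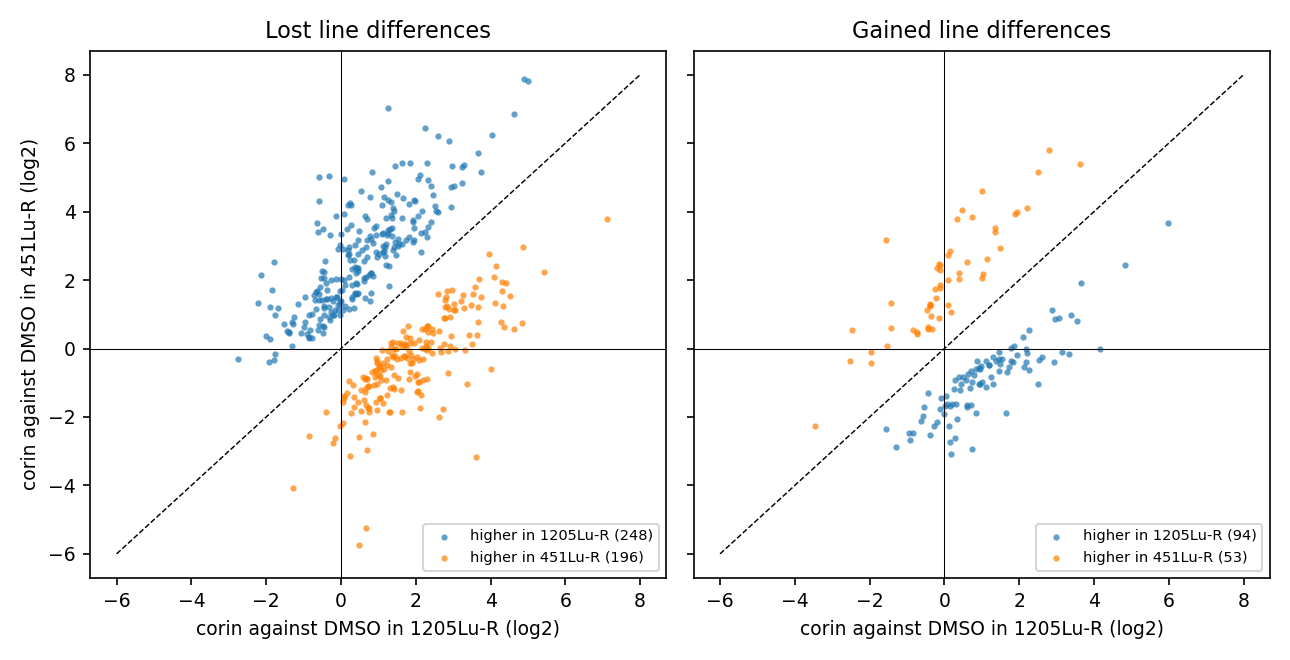
Change from DMSO to corin (log2 of mean CPM plus 0.5) in 1205Lu-R on the horizontal axis and in 451Lu-R on the vertical axis, for the 444 lost genes on the left and the 147 gained genes on the right, coloured by the line with the higher level. The dashed line marks equal change, and lost genes lie mainly where the line that had been lower rose, while 37 of 94 genes gained by 1205Lu-R lie where 451Lu-R fell 2-fold without a 2-fold rise of 1205Lu-R.

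A line's silence was lifted in part of the genes. With DMSO 277 genes were at the floor in 1205Lu-R while 451Lu-R had at least 5 CPM, and 157 of them (56.7%) were at the floor under corin too. Of the 120 others, 19 reached 5 CPM. In the reverse direction 271 genes were at the floor in 451Lu-R, 121 (44.7%) stayed there, and 34 of 150 others reached 5 CPM. PARM1, a mucin-like protein, reached a mean of 35.2 CPM in 451Lu-R, and EPHB1, an ephrin receptor, 24.7. SLAIN1, a microtubule protein, reached 22.5 CPM in 1205Lu-R. These 3 were taken from the top of the list after their values were seen.

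Many of the largest kept differences had 1 line at the floor. TMSB4X, an actin-binding thymosin, measured 0 CPM in both libraries against 528 and 538, and GLUL, glutamine synthetase, 0 in both libraries against 644 and 636. TMSB4X has near-identical copies elsewhere in the genome, and how the quantification shared reads among them was not tested. On the other side IGFBP3, an insulin-like growth factor binding protein, measured 909 and 893 against 0.085 and 0.1 CPM, and the decoy receptor TNFRSF6B 372 and 382 against 0 in both libraries, which shares sequence with a readthrough transcript of RTEL1. MAGEA3, a cancer germline antigen, measured 0 in both libraries against 103 and 109, with paralogs that share reads, and PRAME 165 and 160.0 against 709.9 and 719.

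With DMSO both lines were at the floor in 628 tested genes with a symbol. Of these, 367 were called under corin, 123 higher in 1205Lu-R and 244 higher in 451Lu-R. The shares of all genes were 8.45% and 8.55%. Such genes passed the filter only through their level under corin, which favours a call. Of the 367 genes, 11 met the limits of the gained class, PTGER3 and HLA-DRB1 among them, and 356 did not. The fitted interaction of such genes depends on the prior count. At 5 CPM or more there were 34 and 50. GABRQ, a GABA receptor subunit, measured 0 and 0.09 CPM in 1205Lu-R against 80.6 and 80.9 in 451Lu-R. PCDH20, a protocadherin, measured 0 in both libraries against 21.4 and 24.1 CPM, at least 77.8-fold higher in 451Lu-R. The receptor PTGER2 measured 8.72 and 9.63 against 0 in both libraries. These 3 were also chosen after their values were seen.

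Part of the line difference followed whole chromosomes and was close to equal in both conditions. Among genes with at least 10 CPM, the median log2 difference on chromosome 7 was 0.70 under corin and 0.71 with DMSO over 532 genes. It was -0.96 and -0.91 on chromosome 22 (274 genes) and -0.52 and -0.48 on chromosome 20 (302 genes). Chromosome 7 had 112 genes called higher in 1205Lu-R and 32 higher in 451Lu-R under corin. Genes that were called on the same side in a row formed short runs. The longest on chromosome X held 9 genes with MAGEA3 and GABRQ, 6 of them kept, and one of 8 on chromosome 11 held DHCR7. Copy number was not measured in these data, so its part in the differences was not tested.

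**Figure D5:**
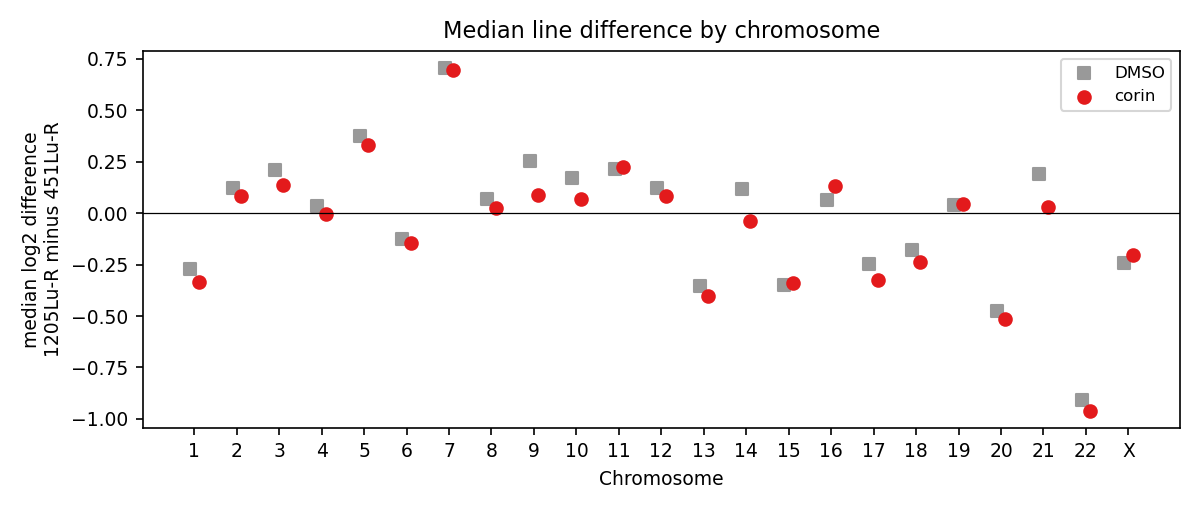
Median log2 difference of genes with at least 10 CPM on each chromosome, as 1205Lu-R minus 451Lu-R, with DMSO and under corin. The squares (DMSO) and circles (corin) lie close together on each chromosome drawn, from 0.70 on chromosome 7 to -0.96 on chromosome 22 under corin.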

How the data were processed

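RNA-Seq of 8 libraries was used, 2 each of 1205Lu-R and 451Lu-R with corin or DMSO. The authors used Trimmomatic for trimming and Salmon for quantification on GENCODE 32 transcripts, and deposited estimated counts (expected counts) per gene, without normalization. The versions of both tools and the use of strand are not given in the sources used here. Deposited tables of the authors' own comparisons (fold changes and p-values) for PLX4032 with corin were not used.

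Estimated counts were rounded and filtered with filterByExpr on the 4 corin libraries (minimum count 10). Lines were compared in each condition with edgeR 4.0.16 (TMM, quasi-likelihood test, 2-sided, Benjamini-Hochberg) in R 4.3.3, and the interaction of line and drug was tested on all 8 libraries. Standard errors are the log2 difference over the square root of its F statistic. Fits were tested on simulated data. TMM factors ran from 0.965 to 1.035. The chi-square per degree of freedom between replicates was 1.34 to 1.41, so they differed by more than sampling noise. CPM were taken over all estimated counts, and floors cover counting error only. Symbols, for 34052 of 34228 genes, and overlaps came from GENCODE 44, and promoters, for 11462 tested genes, from RefSeq (GRCh38.p14).

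The part of the series, the 38 gene lists and the motifs were chosen with earlier results of these data known. Named genes were those the study discusses, at most 4 called and 3 lost, gained or reversed members of each list (called ones at 5 CPM or more), and at most 8 per class and direction at 10 CPM or more. Genes outside this rule are marked in the text. Alternatives were DESeq2 1.42.0, other scalings and filters, another call, a replicate block, 1 fit of all libraries, and leaving out each library.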

Additional observations from a re-analysis of the deposited data

Results flagged for a closer look

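The change of a line difference with corin was tested by the interaction of line and drug (edgeR quasi-likelihood test, Benjamini-Hochberg). It was at least 4-fold at an adjusted p under 0.001 in 897 genes, and 62 of the 159 genes recomputed under each alternative were among them. The 44 with no group at the floor follow, and the other 18 are left out because a fitted change against the floor depends on the prior count. Positive values mean that 1205Lu-R gained on 451Lu-R, and all values are log2 interactions.

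Among lineage and state genes, MITF moved by 2.39, MREG by 3.19, BCL2A1 by 3.75 and S100B by 3.75, all towards 1205Lu-R. SNAI2 (2.96) and ZEB2 (2.29) moved the same way. NGFR (-3.44), WNT5A (-3.34), NRG1 (-3.20) and TCF4 (-2.68) moved towards 451Lu-R. Every one of these 10 genes moved towards the line that had been lower with DMSO, and each stayed on its first side or came within 2-fold. NGFR, which had been higher in 1205Lu-R, ended slightly higher in 451Lu-R.

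In signalling, EGR1 (3.35), MYC (2.38), FOSB (2.19), MAPK13 (3.24) and MAP2K6 (2.78) moved towards 1205Lu-R, and ALK (-2.31), INHBA (-2.93) and SFRP1 (-2.51) towards 451Lu-R. In the cell cycle and among corepressors, CENPE (2.22), KIF20A (2.74), HMMR (3.13) and BCOR (3.56) moved towards 1205Lu-R, while CDKN1A (-4.63) and GSE1 (-2.15) moved towards 451Lu-R.

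In matrix and guidance genes, COL1A1 (-3.24), COL12A1 (-5.27), ITGA2 (-2.87), ITGB4 (-5.44), LAMB3 (-2.40), SLIT2 (-4.29) and NTN1 (-2.99) moved towards 451Lu-R. HAS2 (6.08), TNS1 (6.995) and SEMA3A (3.70) moved towards 1205Lu-R. LAMB3, a laminin chain of epithelial basement membranes, went from 12.6 and 12.6 to 27.1 and 28.4 CPM in 1205Lu-R and from 1.47 and 1.55 to 14.7 and 16.2 in 451Lu-R.

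Of the rest, the neuronal genes CHGB (-2.45) and ATCAY (-3.00), the immunoproteasome subunit PSMB9 (-2.46), the glycolysis genes HK2 (-2.77), SLC2A3 (-2.11) and SLC2A1 (-2.61) and the transporter SLC5A3 (-3.24) moved towards 451Lu-R. IL16 (6.81), HOXA3 (3.96) and CKB (4.10) moved towards 1205Lu-R. IL16, a cytokine precursor that overlaps STARD5 on the other strand, went from 0.723 and 0.8601 to 1.66 and 0.932 CPM in 1205Lu-R and from 78.3 and 79.5 to 1.22 and 0.722 in 451Lu-R.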

How the results depend on the processing

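Direction and side of the threshold were stable in most values. Of the named genes' differences under corin, 1739 values over the alternatives kept both, 5 fell short of the call and 5 changed sign. Those 5 lay near 0 and were no calls: over the left-out libraries TGFB2 ran from -0.000597 to 0.89, GRIN2A from -0.043 to 0.18, HAS2 from -0.48 to 0.099 and IL16 from -0.18 to 0.76, and SLC2A1 was 0.034 with library size only. The lowest values of TGFB2 and GRIN2A came without 451Lu-R corin replicate 2, and the highest of HAS2 and lowest of IL16 without 1205Lu-R corin replicate 1. DUSP5 dropped under 4-fold with no filter (1.99) and without 451Lu-R corin replicate 1 (1.93), as did FASN with library size only (-1.98) and TAP2 without 1205Lu-R corin replicate 2 (1.99) or 451Lu-R corin replicate 2 (1.95). The interaction of ATCAY missed its limits in 6 alternatives, with an adjusted p of 0.209 without 1205Lu-R DMSO replicate 2.

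A fold of 2 with an FDR under 0.01 gave 2761 and 2999 calls under corin (on the 1205Lu-R side, then the 451Lu-R side), 2703 and 2917 with DMSO, and 1901 smaller and 606 larger differences. It gave 3664 kept, 927 gained, 1595 lost and 37 reversed genes. The lower line then rose 2-fold in 410 and 364 of the 1595 lost genes, against 212 and 145 of 444 at the 4-fold call. Falls of the higher line were not counted at this call. A gene can also be lost at it without a 2-fold change in either line. Closing mostly from below was thus seen at the 4-fold call, and these counts cannot show whether it held at this one. List counts became 21 for mitosis, 13 for TGF-β and BMP and 15 for sterol synthesis. A limit of 0.58 for no difference gave 79 gained and 239 lost genes, 111 and 75 of them with the lower line rising. A floor of 10 counts left 51.1% of genes silent in 451Lu-R. In the 150 bases before the start, the M-box core was in 2.75% and the AP-1 site in 4.53% of the kept promoters of their side. Over all tested promoters the shares in that window were 0.96% and 1.74%. The reversed class held 1 gene with DESeq2 and 6 with no filter. It held 1 without 1205Lu-R DMSO replicate 2 and 5 without 451Lu-R DMSO replicate 1.

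Leaving out 1 library in turn gave 1176 to 1299 and 1251 to 1311 calls under corin, 1354 to 1385 and 1343 to 1372 with DMSO, and 724 to 773 smaller and 78 to 102 larger differences. Classes ran from 1538 to 1593 kept, 126 to 147 gained, 434 to 463 lost and 1 to 5 reversed genes. The lower line rose in 202 to 214 and 140 to 161 lost genes. Calls ran from 6 to 9 in mitosis and 6 to 7 in sterol synthesis, and were 6 in TGF-β and BMP, 16 in pigment, 17 in invasive and 17 in collagen genes. The lone library left in a group was assumed to vary like the others.

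Replicate numbers do not pair the libraries by the labels. The deviations of same-numbered libraries correlated with r of -0.0459 under corin and 0.165 with DMSO, and a replicate block gave 1203 and 1234 calls under corin, with 1543 kept, 132 gained and 439 lost genes. DESeq2 gave 1132 and 1137 calls. Library size only moved the split under corin to 1376 and 1234, and the medians of chromosomes 7 and 22 to 0.80 and -0.87. Low depth limits genes at a few counts, and 2 libraries a group do not show how the lines vary between cultures.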

Other observations

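HOX genes, which set positional identity, differed between the lines in both conditions. Of 27 tested, 11 were called higher in 1205Lu-R and 1 higher in 451Lu-R under corin, where 8.45% and 8.55% of all genes were, against 9 and 3 with DMSO, and 9 were kept. HOXB7 measured 9.57 and 10.3 CPM in 1205Lu-R against 0.086 and 0.197 in 451Lu-R, HOXA10 9.35 and 5.399 against 0 and 0.2, and HOXD4 9.76 and 9.36 against 0.1695 and 0. HOXA3, which overlaps antisense transcripts, was gained, and it went from 4.52 and 3.58 to 5.04 and 3.96 CPM in 1205Lu-R and from 4.31 and 5.07 to 0.1695 and 0.3999 in 451Lu-R. Of 28 cancer germline antigens listed, 22 were quantified and 8 passed the filter. Of those 8, 7 were called higher in 451Lu-R under corin, where 8.55% of all genes were, and all 7 were kept. In 6 of the 8, 1 line was at the floor, so they passed the filter only through the other line, which favours a call.

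In the other lists, 17% is the share of all genes called under corin. Of 22 apoptosis regulators 4 were called (18.18%), of 16 drug efflux transporters 4 (25%) and of 33 lysosome genes 8 (24.24%). Shares were larger in 29 integrins and laminins, with 12 called (41.38%), and in 24 matrix proteases and inhibitors, with 10 (41.67%). NRF2 targets and metallothioneins gave 5 calls of 19 (26.32%). HMOX1, heme oxygenase 1, measured 36.7 and 35.5 CPM in 1205Lu-R against 290.4 and 287 in 451Lu-R under corin. The metallothionein MT1E measured 148 and 146 against 0 in both libraries, and AKR1B10, an aldo-keto reductase, 19.98 and 17.9 against 0.1695 and 0.1. Of 11 markers of other cell types 8 were called (72.73%), 6 of them higher in 451Lu-R, where LUM, a proteoglycan of connective tissue, had a mean of 103.2 CPM and PECAM1, an endothelial adhesion molecule, was at 0.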
